A study of Mus musculus and Homo sapiens with 8 samples.

Results

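The genes described here repair broken and crosslinked DNA: 30 human genes of homologous recombination and of the Fanconi anemia pathway, chosen by name from the 25611 gene symbols of the human count table. All 30 were found there. The cells were of MDA-MB-231, a cell line from a breast cancer without hormone receptors. One culture had been kept for 3 days in 40 µM olaparib, an inhibitor of the DNA repair enzymes PARP1 and PARP2, and the other for 3 days in DMSO, the solvent. The labels name no genetic change in either culture. RNA sequencing gave 1 library per condition, so no difference below has a replicate check or a test. Each compares 2 libraries, not the conditions. The 6 mouse libraries of the series were not analysed here.

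Homologous recombination copies lost sequence from the sister chromatid, so it works in cells that are replicating or have replicated their DNA. Nucleases first trim the broken ends (resection). BRCA1 and BARD1 promote that step and recruit PALB2 and BRCA2, which prepare the exposed strand for exchange, helped by RAD51B, RAD51C, RAD51D, XRCC2 and XRCC3. Motor proteins such as RAD54L drive the strand exchange, and BLM with TOP3A and RMI1 takes the joined molecules apart. In the Fanconi pathway, a core complex of several FANC proteins attaches ubiquitin to FANCD2 and FANCI at DNA crosslinks. Tumour cells that lack homologous recombination are sensitive to PARP inhibitors, which is why these genes are of interest under olaparib.

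The olaparib library held 6878212 counts and the DMSO library 7472981. A floor of 3 counts is therefore 0.436 CPM in the olaparib library and 0.401 CPM in the DMSO library. Mitochondrial transcripts took 4.75% of counts under olaparib and 5.61% in DMSO. Among markers of this line, VIM had 6099 counts in the olaparib library and 8387 in the DMSO library, and the estrogen receptor gene ESR1 had 0 in both. The progesterone receptor gene PGR had 0 counts under olaparib and 7 in DMSO. Of 8 genes listed as marks of the line, 7 reached a mean scaled count of 50 and SPARC had 0 counts in both libraries. EGFR had 1169 counts under olaparib and 3422 in DMSO, and CAV1 had 1771 under olaparib and 4809 in DMSO. Of 7 genes listed as low or absent, only ERBB2 reached that mean, with 883 counts under olaparib and 710 in DMSO. MKI67, the proliferation marker, had 890 counts under olaparib and 4044 in DMSO, and CDKN1A, which encodes the cell cycle inhibitor p21, had 2762 under olaparib and 1007 in DMSO. These are whole cultures, so fewer cells in a cell cycle phase and less RNA per cell cannot be told apart.

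The ratios of the 30 genes ran from -2.92 (RBBP8) to 1.06 (XRCC3), with genes at most levels between. Each ratio is the log2 of the olaparib value divided by the DMSO value, after TMM scaling (which sets the libraries level over the bulk of genes) and with a pseudocount of 1. A gene was past the fold at a ratio of 1 or more in absolute value and a mean scaled count of at least 50. Brackets give the 95% counting interval, which covers counting error only, and reads are not independent molecules. Of the 27 genes that reached that mean, 14 were past the fold on the low side, or 51.9%, and 1 on the high side. Over all 10278 genes with that mean, 21.2% were lower and 7.82% higher by the same rule. The median ratio was -1.03 for the 27 genes and -0.02 for all genes. RAD50, RAD51B and RAD54B did not reach the mean. For 11 of the 14 lower genes the whole counting interval lay below -1, and BARD1, RMI1 and FANCM were the others. The share of all genes by that stricter rule is not given here, so the 11 cannot be read against the 21.2%. A gene reaches the mean more easily when at least 1 library is high, so these counts describe the genes that reached it, not all 30.

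**Figure D1:**
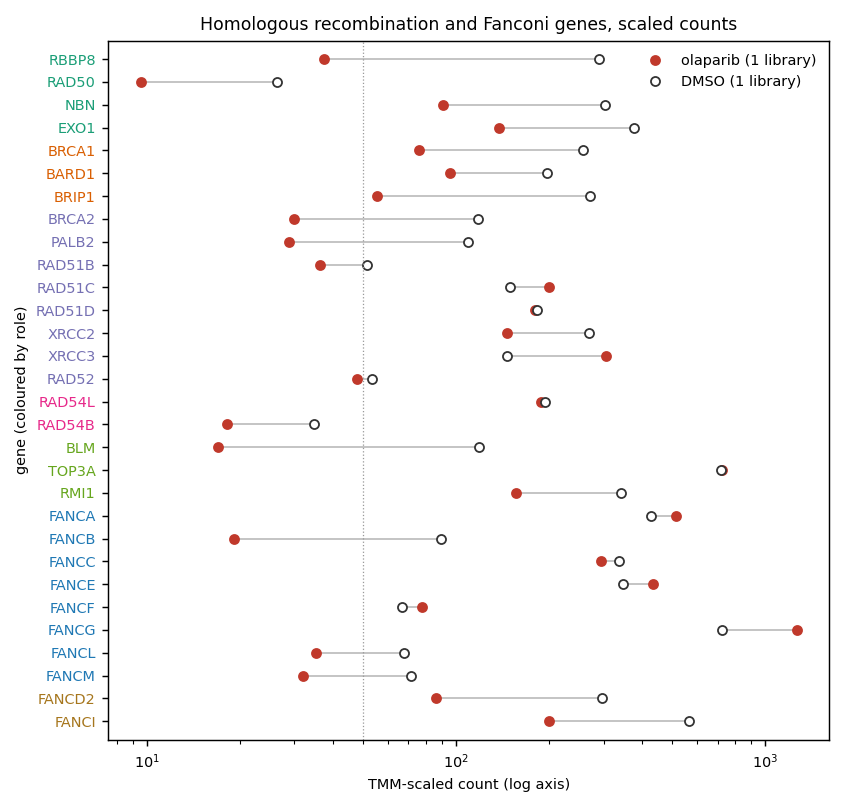
TMM-scaled count of each of the 30 genes (log axis) in the olaparib library (filled red) and the DMSO library (open), 1 library each, with gene names coloured by role and a dotted line at a scaled count of 50. RBBP8, BLM, BRIP1 and FANCB have the widest gaps below their DMSO values, while XRCC3, FANCG and RAD51C lie above theirs.

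The resection genes were all lower in the olaparib library. RBBP8, whose product CtIP starts end trimming, had 35 counts under olaparib and 308 in DMSO, a log2 ratio of -2.92 (-3.50 to -2.45), the lowest of the 30. NBN, a subunit of the MRN complex that senses breaks, had 85 counts under olaparib and 323 in DMSO (-1.73, -2.11 to -1.40). EXO1, a nuclease that extends the trimmed stretch, had 129 counts under olaparib and 400 in DMSO (-1.45, -1.75 to -1.16). RAD50, the partner of NBN in the same complex, was barely counted, with 9 reads under olaparib and 28 in DMSO, and its interval was wide (-2.72 to -0.33). MRE11, the nuclease of that complex and not one of the 30, had 91 counts under olaparib and 357 in DMSO (-1.78).

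BRCA1 and its partners were also lower. BRCA1 had 71 counts in the olaparib library and 274 in the DMSO library, a log2 ratio of -1.75 (-2.16 to -1.39). BARD1, its ubiquitin ligase partner, had 90 counts under olaparib and 210 in DMSO, and its ratio of -1.03 (-1.41 to -0.68) lay just past the fold. BRIP1, the helicase that binds BRCA1, had 52 counts under olaparib and 289 in DMSO (-2.27, -2.75 to -1.86). Although BRCA1 and BARD1 proteins form a dimer, the ratio of BARD1 was the less extreme, and the 2 intervals overlapped only slightly. PALB2, which bridges BRCA1 to BRCA2, had 27 counts under olaparib and 116 in DMSO (-1.89, -2.58 to -1.31). BRCA2, a mediator of strand exchange, had 28 counts under olaparib and 125 in DMSO (-1.94, -2.62 to -1.38). The ratios of these last genes cannot be ordered, since their intervals cover each other.

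RAD51B, RAD51C, RAD51D, XRCC2 and XRCC3, which assist strand exchange, were not past the fold on the low side. RAD51C had 188 counts in the olaparib library and 159 in the DMSO library (0.42, 0.11 to 0.74). XRCC3, which pairs with RAD51C, had 287 counts under olaparib and 156 in DMSO, the highest ratio of the 30 at 1.06 (0.77 to 1.35). It was inside the fold with equal library totals, median-of-ratios factors or no scaling, down to 0.88. RAD51B, RAD51D and XRCC2 form another complex with RAD51C. RAD51D had 169 counts under olaparib and 195 in DMSO (-0.03), XRCC2 had 137 under olaparib and 286 in DMSO (-0.88, -1.19 to -0.58), and RAD51B had 34 under olaparib and 55 in DMSO (-0.50, -1.17 to 0.13). RAD52, which anneals single strands, had 45 counts under olaparib and 57 in DMSO, with an interval on both sides of 0 (-0.76 to 0.43). RAD54L was alike at 176 counts under olaparib and 206 in DMSO (-0.34 to 0.25), while its relative RAD54B had 17 under olaparib and 37 in DMSO (-0.90, -1.86 to -0.08).

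Genes of the dissolution complex differed from each other. BLM, the helicase mutated in Bloom syndrome, had 16 counts under olaparib and 126 in DMSO, a log2 ratio of -2.73 (-3.65 to -2.04). RMI1, a scaffold of the complex, had 147 counts under olaparib and 362 in DMSO (-1.11, -1.41 to -0.84). TOP3A, its topoisomerase, had 680 counts in the olaparib library and 767 in the DMSO library, a ratio of 0.01 with a narrow interval (-0.14 to 0.16). The intervals of these 3 genes do not overlap.

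The Fanconi core complex was split as well. FANCB had 18 counts under olaparib and 95 in DMSO (-2.16, -3.03 to -1.48), and FANCM, the helicase that anchors the complex to DNA, had 30 under olaparib and 76 in DMSO (-1.14, -1.82 to -0.53). The ubiquitin ligase FANCL had 33 counts under olaparib and 72 in DMSO (-0.93), just inside the fold. The other core genes were near or above 0. FANCG had 1185 counts under olaparib and 773 in DMSO (0.80, 0.67 to 0.93), all its interval above 0. FANCE had 406 under olaparib and 369 in DMSO (0.32), and FANCA had 484 under olaparib and 455 in DMSO (0.27). FANCF had 73 under olaparib and 71 in DMSO (0.22), and FANCC had 276 under olaparib and 357 in DMSO (-0.19). Summed over the 8 core genes, there were 2505 counts under olaparib and 2268 in DMSO, of which FANCG made up a large part. The targets of the complex were lower together: FANCD2 had 81 counts under olaparib and 316 in DMSO (-1.77, -2.15 to -1.43), and FANCI had 188 under olaparib and 603 in DMSO (-1.5, -1.74 to -1.26).

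The ratios varied with the base composition and length of the genes. GC content and length were taken from the transcript of the mouse gene of the same name (GENCODE M21), since the annotation used here is of mouse. Such a gene was found for all 30 and for 9035 of the 10278 genes at the minimum mean (87.9%). These values stand in for the human ones and can differ from them, above all in untranslated parts. Across the 9035 genes, the ratio increased with GC content (Spearman's rho 0.64) and decreased with length (rho -0.49). Across the 30 genes rho was 0.71 with GC content and -0.54 with length. All these points come from the same 2 libraries, and genes are not independent replicates.

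**Figure D2:**
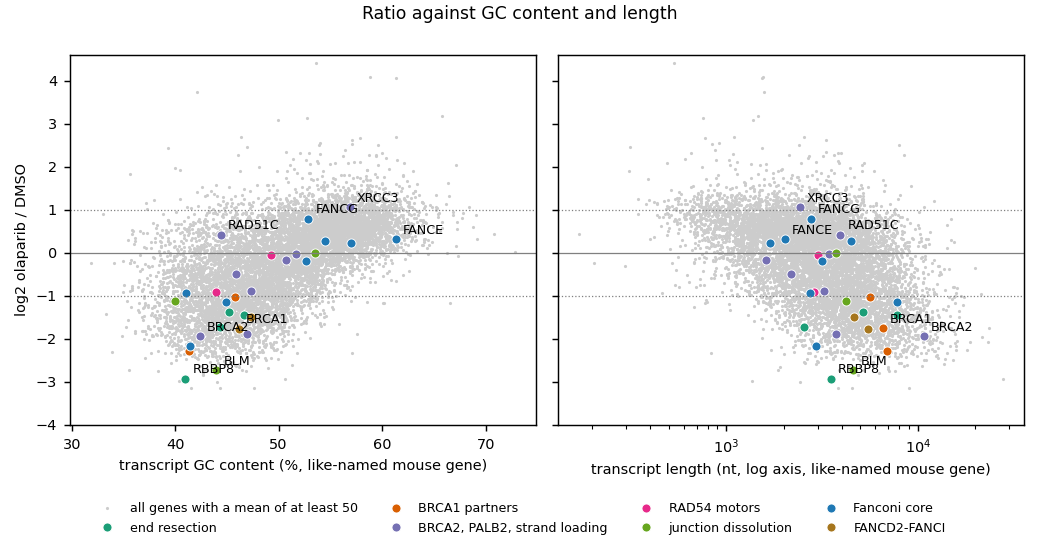
Log2 ratio of olaparib over DMSO against transcript GC content (left) and transcript length (right, log axis) of the like-named mouse gene, for all genes with a mean scaled count of at least 50 (grey) and the 30 genes coloured by role; dotted lines mark a ratio of 1 in either direction. The 30 genes lie along the slopes of the grey cloud, with RBBP8 and BLM at its lower edge and RAD51C at its upper edge for its GC content.

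The median ratio of all genes was -1.47 among those in both the GC-poorest and the longest quintile, and 0.76 among those in both the GC-richest and the shortest quintile. GC-poor genes also took a smaller share of the olaparib library: the quintile of genes with the lowest GC content held 12.1% of counts under olaparib and 18.3% in DMSO, and the quintile with the highest held 25.6% under olaparib and 18.1% in DMSO. Of the 30 genes, 20 lay in the 2 quintiles with the lowest GC content, and 8 lay in the quintile of longest transcripts. Splitting all genes at the median GC content of 50.6% and the median length of 3117 nt put 15 of the 30 among the GC-poor and long. Of these 15, 13 were lower by at least 1 log2, RAD50 included, against 55.8% of all genes of that kind; RAD51C and XRCC2 were the exceptions. Of 6 GC-poor and short genes, 2 were lower (NBN and FANCB), against 17.3% of all such genes. The 6 include RAD51B and RAD54B, which did not reach the minimum mean, while the shares of all genes cover only genes that did. Of the 9 GC-rich genes (RAD51D, TOP3A, FANCA, FANCC, XRCC3, RAD52, FANCE, FANCF and FANCG), 0 were lower, against 6.94% of long and 1.27% of short GC-rich genes. The cause of the trend was not tested.

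**Figure D3:**
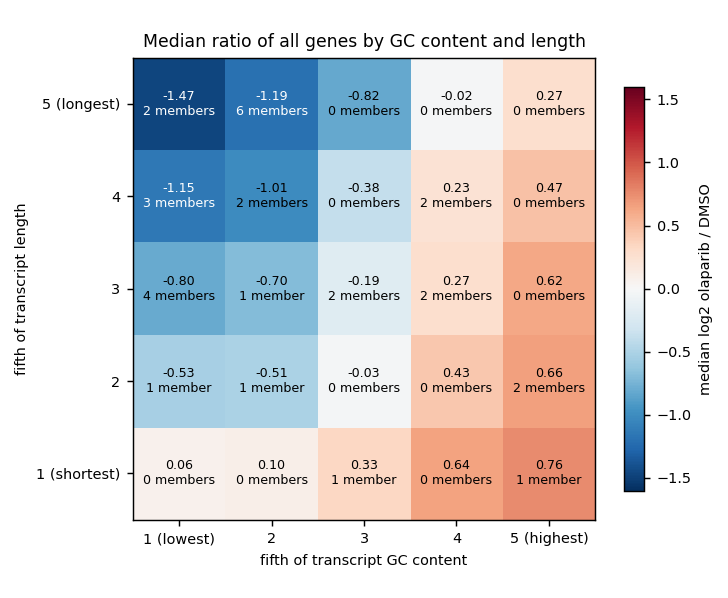
Median log2 ratio of olaparib over DMSO for all genes with a mean scaled count of at least 50 and a like-named mouse gene, by quintile of transcript GC content (across) and of transcript length (up), with the number of the 30 genes in each cell. The median goes from 0.76 in GC-rich short genes to -1.47 in GC-poor long genes, and 13 of the 30 genes sit in the 4 cells with medians below -1.

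The adjusted ratio is the ratio minus the value fitted at a gene's GC content and length over the 9035 genes. The fit took up 54.5% of the variance of the ratio, and the quartiles of the adjusted ratio were -0.38 and 0.37. It is read relative to genes of like composition and length, and its intervals leave out the error of the fit. After adjustment, 5 of the 27 genes were lower by at least 1 log2 (18.5%) and 1 was higher, beside 5.81% lower and 5.18% higher over all 9035 genes. The median moved to -0.26 for the 27 genes, against 0.01 for all genes. Of the 27 genes, 19 were below 0, beside 4472 of the 9035 genes. Of all 30, with the genes under the minimum mean included, 22 were below 0 and 8 above. A fit on the GC content and length of the coding sequence alone, added after the values were seen, took up 57.2% of the variance. It left 2 of the 27 lower and 1 higher, beside 5.97% and 3.65% of all genes, with a median of -0.16.

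**Figure D4:**
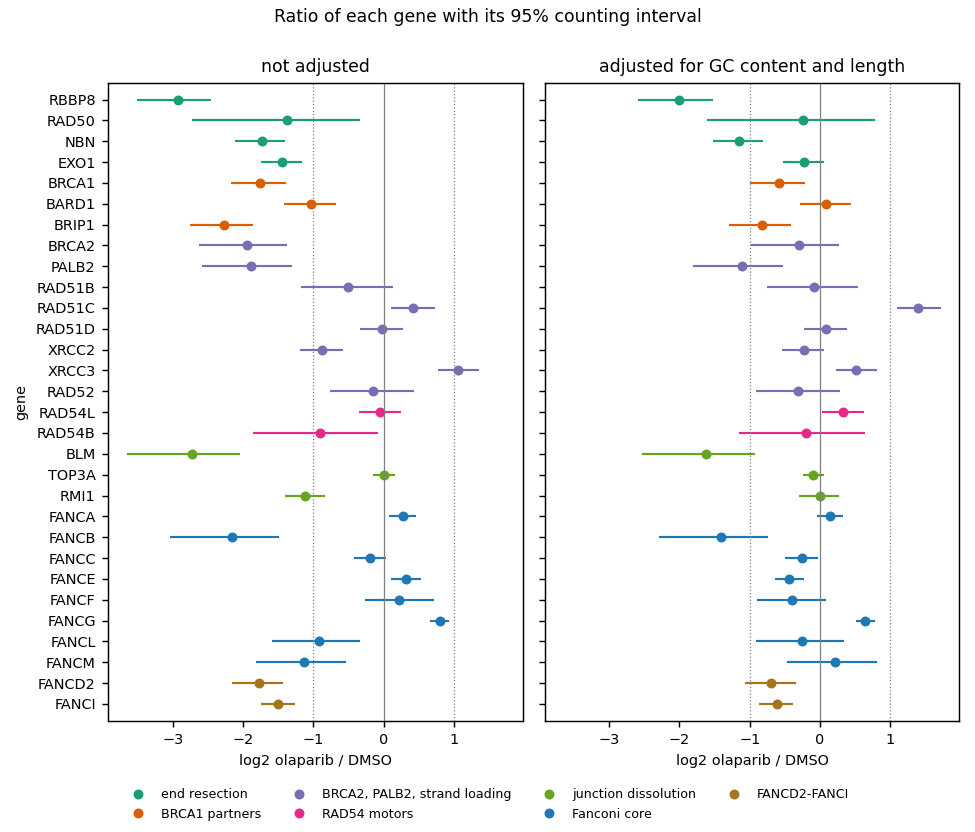
Log2 ratio of olaparib over DMSO of each of the 30 genes, not adjusted (left) and adjusted for GC content and length (right); points are the ratios of 1 library to 1 library, bars are 95% counting intervals and colours mark roles. After adjustment most genes lie between -1 and 1, with RBBP8, BLM, FANCB, NBN and PALB2 below and RAD51C above.

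RBBP8 and BLM had the lowest adjusted ratios of the 30 in this fit; with bin medians in place of the fit, FANCB (-1.68) lay below BLM (-1.55), and the intervals of BLM and FANCB overlap. RBBP8 had an adjusted ratio of -2.0 (-2.58 to -1.53), at percentile 0.166 of all adjusted ratios, with a fitted value of -0.92 at a GC content of 41.0% and a length of 3523 nt. BLM had an adjusted ratio of -1.62 (-2.54 to -0.93). With the coding sequence in the fit they stood at -1.32 and -1.02. FANCB (-1.41), NBN (-1.15) and PALB2 (-1.11) were also past the fold, but not with the coding sequence, where they had -0.59, -0.31 and -0.51. RAD51C was the gene on the high side. The like-named mouse transcript is GC-poor (44.4%) and has 3944 nt, of which 1098 nt are coding. The fitted value of RAD51C from that transcript was -0.98, and its adjusted ratio was 1.40 (1.09 to 1.72), or 1.1 with the coding sequence.

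In the main fit, the other genes lay closer to genes like them. BRCA1 had a fitted value of -1.17 and an adjusted ratio of -0.58 (-1.0 to -0.22), and with the coding sequence -0.16. BRCA2, the gene with the longest like-named mouse transcript of the 30 at 10724 nt, had a fitted value of -1.64 and an adjusted ratio of -0.30 (-0.98 to 0.27). BARD1 and FANCM came to lie above 0, at 0.09 and 0.21, and RMI1 came to -0.01. FANCD2 and FANCI, with adjusted ratios of -0.69 (-1.07 to -0.35) and -0.62 (-0.87 to -0.38), stayed close to each other, as did their ratios before adjustment, and were at -0.34 and -0.07 with the coding sequence. BRIP1 was at -0.83 (-1.30 to -0.42) and at -0.58 with the coding sequence. EXO1 came to -0.23 and RAD50 to -0.25. XRCC3, past the fold before, had an adjusted ratio of 0.52 (0.23 to 0.81). FANCG kept a ratio above 0 at 0.64 (0.51 to 0.78), while FANCE (-0.44) and FANCF (-0.40), both GC-rich and short, moved below 0. FANCA was at 0.14, FANCC at -0.26 and FANCL at -0.25. RAD54L came to 0.33, RAD51D to 0.08, RAD51B to -0.08, TOP3A to -0.10, RAD54B to -0.19, XRCC2 to -0.23 and RAD52 to -0.31. With the coding sequence these came to 0.73, -0.48, -0.03, 0.48, 0.61, -0.75 and 0.14 in that order. FANCA, FANCC and FANCL came to 0.64, 0.61 and -0.21 there, and FANCG, FANCE and FANCF to 0.74, -0.29 and -0.37. BRCA2, BARD1, FANCM and RMI1 came to 0.24, 0.05, 0.56 and 0.17, and EXO1, RAD50 and XRCC3 to -0.44, 0.36 and 0.48. Several thus lay further from 0 or changed sign, so their place depends on the fit.

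Other genes of the pathways were set beside these. Over all genes, 21.2% were lower and 7.82% higher before adjustment, and 5.81% lower and 5.18% higher after it. Of 34 further homologous recombination genes at the minimum mean, 14 were lower (41.2%) and 2 higher by at least 1 log2, with a median of -0.26. After adjustment, 5 of the 32 with a like-named mouse gene were lower (15.6%) and 2 higher, with a median of 0.10. TOPBP1, a scaffold of checkpoint and repair complexes, had 70 counts under olaparib and 533 in DMSO (-2.73, adjusted -1.70). FIGNL1, an ATPase of this repair route, had 47 counts under olaparib and 261 in DMSO (-2.27, adjusted -1.52). The helicase MCM8 had 38 under olaparib and 198 in DMSO (-2.17, adjusted -1.43), and MMS22L, a factor of replication fork repair, had 67 under olaparib and 249 in DMSO (-1.70, adjusted -0.73). Of 17 further Fanconi and crosslink repair genes, 7 were lower (41.2%) and 0 higher before adjustment, with a median of -0.42. After it, 3 were lower (17.6%) and 1 higher, with a median of 0.02. RAD18, a ubiquitin ligase of damage tolerance, had 75 counts under olaparib and 322 in DMSO (-1.91, adjusted -1.29). WDR48, the cofactor of the enzyme that removes ubiquitin from FANCD2, had 124 under olaparib and 443 in DMSO (-1.65, adjusted -1.05). REV3L, the catalytic subunit of polymerase zeta, had 38 under olaparib and 141 in DMSO (-1.69) and an adjusted ratio of -0.05. DCLRE1A, a crosslink repair nuclease, had a ratio of -1.34 and an adjusted ratio of -0.53, and REV1, a translesion polymerase, -1.24 and -0.36.

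**Figure D5:**
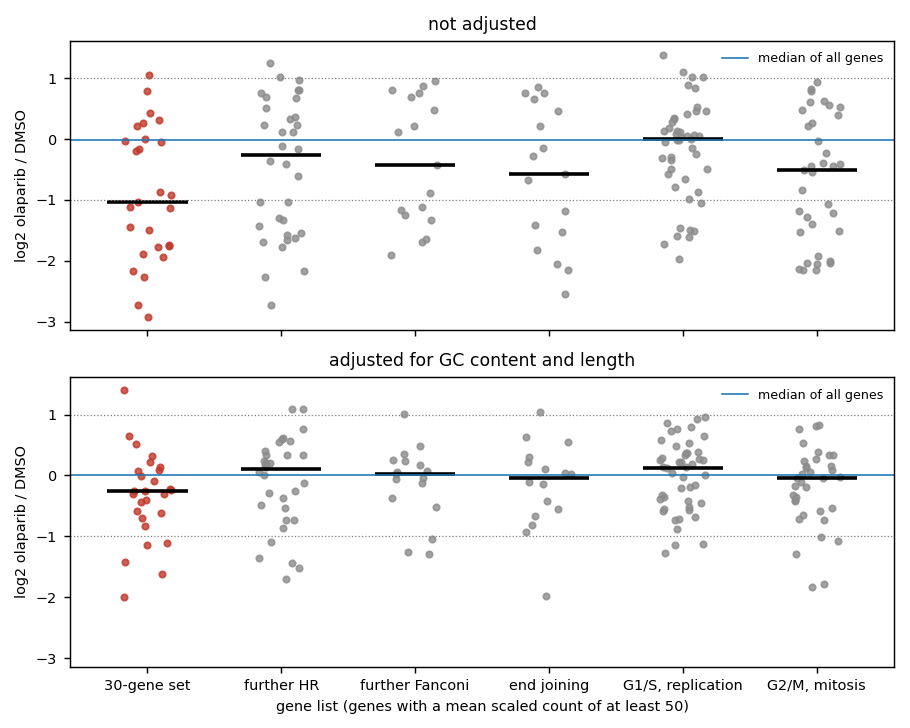
Log2 ratio of olaparib over DMSO of single genes (points, spread sideways for visibility) and their median (black bar) for the 30-gene set (those of its genes with a mean scaled count of at least 50) and for 5 other lists, before (top) and after (bottom) adjustment for GC content and length; the blue line is the median of all genes. The 30-gene set has a median of -1.03 before and -0.26 after adjustment, and the other lists have medians between -0.57 and 0.00 before and between -0.05 and 0.13 after.

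Lists of other repair and cell cycle genes follow, again without a test. They are to be read beside all genes, with 21.2% lower and 7.82% higher before adjustment, and 5.81% and 5.18% after it. Of 17 end joining genes, 7 were lower (41.2%) and 0 higher, with a median of -0.57. After adjustment 1 of 16 was lower (6.25%) and 1 higher, with a median of -0.04. The lower one was XRCC5, which encodes the Ku80 subunit that holds broken ends, with 377 counts under olaparib and 2488 in DMSO (-2.54, adjusted -1.98). RIF1, LIG4 and PRKDC had ratios of -2.15, -2.05 and -1.83 and adjusted ratios of -0.55, -0.82 and -0.15, and TP53BP1 had a ratio of -1.54. Of 46 genes of the G1/S transition and DNA replication, 8 were lower (17.4%) and 4 higher, with a median of 0.00. After adjustment 3 were lower (6.52%) and 0 higher, with a median of 0.13. These shares of lower genes were close to those of all genes. MCM6, a subunit of the replicative helicase, had 274 counts under olaparib and 888 in DMSO (-1.51, adjusted -1.15). POLA1, RRM1, TIPIN and CLSPN had ratios of -1.96, -1.73, -1.61 and -1.59 and adjusted ratios of -0.68, -0.74, -1.27 and -0.88. Of 35 genes of G2/M and mitosis, 15 were lower (42.9%) and 0 higher, with a median of -0.50. After adjustment 5 were lower (14.3%) and 0 higher, with a median of -0.05. BUB1B, a kinase of the spindle checkpoint, had 91 counts under olaparib and 464 in DMSO (-2.16, adjusted -1.83). ECT2, DLGAP5, ANLN and KIF23 had ratios of -2.15, -2.14, -2.06 and -2.04 and adjusted ratios of -1.07, -1.78, -1.01 and -1.29. MKI67 had a ratio of -2.0 (-2.11 to -1.90) and an adjusted ratio of -0.65. These are the genes with the largest ratios, and others of the lists lay elsewhere: 23 of the 46 replication genes (14 to 28 under the other scalings) and 11 of the 35 mitosis genes (11 to 13) had ratios above 0. Among examples picked after their values were seen, PCNA, the replication clamp, had 1927 counts under olaparib and 2198 in DMSO (-0.01), CDK1, the mitotic kinase, had 862 under olaparib and 999 in DMSO (-0.03), and MYBL2, a transcription factor of mitotic genes, had 2827 under olaparib and 1681 in DMSO (0.93). Of 6 genes of the p53 response and arrest at the minimum mean, 0 were lower and 2 higher, and of the 5 with an adjusted ratio 0 were lower and 2 higher. MDM2, which encodes the ligase that degrades p53, had 137 counts under olaparib and 309 in DMSO (-0.99, adjusted -0.30), just inside the fold, and was past it under 4 of the 5 other scalings, at -1.04 to -1.17, but not with upper quartile scaling (-0.72). CDKN1A had a ratio of 1.64 and an adjusted ratio of 1.24, and GDF15, a stress-induced growth factor, had 2502 counts under olaparib and 168 in DMSO (4.07, adjusted 3.26). Many of the 30 genes are most active in dividing cells, and the part that the differences of proliferation genes have in their ratios was not tested. The medians of the replication and mitosis lists are also medians of genes with other GC contents and lengths, of 49.1% and 2984 nt and of 47.3% and 3398 nt, while the 27 genes had medians of 46.6% and 3741 nt.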

How the data were processed

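The authors deposited counts per gene symbol in 1 table for the 2 human libraries. The submitters' processing notes name the aligner STAR (2.6.0c), the counter featureCounts (1.6.2) and builds hg19 and mm10, without saying how each was used. The kit was directional, per the labels' protocols; for the strand setting of featureCounts, no value is given in the sources used here. Overlapping and antisense genes may therefore share reads. The table is named as normalized. Its values were treated as raw counts because they are whole numbers with unequal totals, and the frequencies of values between 1 and 60 lay closer to a smooth curve than those of rescaled counts: the chi-square per degree of freedom against a smooth curve was 1.39 in the olaparib library and 0.884 in the DMSO library, against 2.69 to 4.52 when the counts were lowered or raised by 3% and rounded.

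TMM factors (edgeR 4.0.16, R 4.3.3) came from genes with a mean count of at least 10. That gene set was chosen after the data were seen, when factors from all genes gave ratios about 0.05 lower than earlier values for the same files; all genes are kept as an alternative. Intervals are exact conditional binomial intervals at 95%. The adjusted ratio used a local regression (span 0.3, robust, degree 1) on GC content and log10 length of the principal transcript of the like-named mouse gene; the procedure was tested on simulated data. Library totals, median-of-ratios, upper-quartile and no scaling, other pseudocounts, other minimum means and other forms of the adjustment were tried as alternatives. A planned motif search in human promoters was not made, and no human sequences or coordinates were used here. The genes and lists were chosen with earlier results of these data known. All 30 genes are named. Of each other list, up to 5 with the largest ratios in absolute value are named, with MKI67, CDKN1A and a few markers of the line added. PCNA, CDK1 and MYBL2 were added after their values were seen.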

Additional observations from a re-analysis of the deposited data

How the results depend on the processing

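No paired analysis was possible because each condition had 1 library. The adjustment moved the results most. The number of genes lower by at least 1 log2 was 14 of 27 without it, beside 21.2% of all genes. It was 5 with GC content and length, 5 with GC content alone and 7 with length alone. The median ratio moved to -0.26, -0.32 and -0.46 in that order. With both properties 5.81% of all genes were lower, and the shares with either property alone are not given here. BARD1 and FANCM lay above 0 with both properties, at 0.0923 and 0.213. The 5 lower after adjustment became 2 (RBBP8 and BLM) with the GC content and length of the coding sequence, and 2 with GC content at the last codon position and coding length, where FANCG joined RAD51C as 2 higher; both were chosen after the data were seen. With a pseudocount of 5, PALB2 came to lie just inside the fold, leaving 4. With GC content alone the 5 held BRIP1 (-1.27) in place of NBN (-0.82). RBBP8 and BLM stayed below -1 and RAD51C above 1 under all 14 alternatives that adjusted for both properties. Their ranges were -2.04 to -1.32, -1.70 to -1.02 and 1.1 to 1.57. These are point values, and the counting interval of BLM in the main fit reached -0.93. Those of the 14 that changed only the scaling could hardly move them, since the fit was redone under each. With length alone RAD51C was at 0.77. The single gene higher without adjustment, XRCC3, was not past the fold with equal library totals, median-of-ratios factors or the deposited scale (0 each), with length alone adjusted (0) or when its whole counting interval had to pass (0), and 2 genes passed with upper quartile scaling. The lower count was 11 with upper quartile scaling (without BARD1, RMI1 and FANCM), 15 with median-of-ratios factors (with FANCL) and 16 on the deposited scale (with FANCL and XRCC2). The median ratio of all genes at the minimum mean was 0.24, -0.11 and -0.20 in that order. The share of all genes past the fold thus moves with the scaling too, and it is not given here. Upper quartile scaling shifted all ratios by 0.27 and the deposited scale by -0.18. The adjusted counts stayed the same under every scaling, but this is no check of them. The fit was redone under each scaling and takes up a shift common to all genes. TMM over all genes, in place of the gene set chosen after the data were seen, shifted ratios by -0.05 and gave 14 lower, 1 higher and a median of -1.08, with 5 lower and 1 higher after adjustment. Counting error limits RAD50, RAD51B and RAD54B most, and with 1 library per condition the spread between cultures is unknown.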
